A study of Mus musculus with 2 samples.

Results

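Beta-catenin, the proteins that hold and destroy it and the TCF/LEF factors through which it acts on genes are encoded by the 10 genes described here. They were chosen by name and not by any measured value, as the rows for Ctnnb1, Apc, Axin1, Axin2, Gsk3a, Gsk3b, Tcf7, Tcf7l1, Tcf7l2 and Lef1 among 23284 gene symbols, and all 10 were listed. The data are FPKM values, which scale reads by transcript length and library size, from RNA-seq of 1 WT and 1 STAP-1 KO library of leukemic stem cells (LSCs) from mice with a model of chronic myeloid leukemia (CML). In this model, LSK cells (lineage marker-negative, Sca-1+ and c-Kit+) of C57BL/6J donors, either WT or with a targeted disruption of Stap1, were infected with a retrovirus carrying human BCR-ABL and GFP, and were transplanted with normal bone marrow cells into lethally irradiated congenic recipients. GFP+ CD45.2+ LSK cells were sorted from both groups of recipients at day 11 (mice of 8 to 14 weeks of age were used), so that both libraries carry BCR-ABL and differ by the loss of STAP-1 in the donor. How many mice stand behind each library is not given in the sources used here.

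Without a Wnt signal, the scaffold proteins Axin and APC hold beta-catenin for phosphorylation by casein kinase 1 and GSK3, after which it is ubiquitinated and degraded. When a Wnt ligand binds a Frizzled receptor and its co-receptor LRP5 or LRP6, this destruction complex is inhibited, and beta-catenin enters the nucleus, where it displaces TLE corepressors from TCF/LEF factors. Beta-catenin has been linked to the self-renewal of CML LSCs in mice, and the study lists Wnt signaling among pathways proposed to act in them under tyrosine kinase inhibitors. The control of beta-catenin is largely at the level of the protein, which these data do not measure.

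Each genotype has 1 library, so differences lack a check against replicates and p-values are not given. FPKM values do not state the number of reads, but low values fell on steps from which effective depths of 7500000 (WT) and 10470000 reads (STAP-1 KO) were estimated. Estimated reads and the 95% intervals below rest on these depths and on the longest coding transcript, and cover counting error only. The reads carry no molecular identifiers, so even counting error may be understated. Stap1 itself had 62.0 FPKM in WT LSCs and 0.309 FPKM in STAP-1 KO LSCs, as the labels require. Of the antigens used for sorting, the c-Kit gene had 468 FPKM in WT and 30.1 FPKM in KO cells, and the Sca-1 gene Ly6a had 285 FPKM in WT and 106 FPKM in KO cells (here and below, the WT value comes first in a pair). The ratio of the libraries fell with transcript length, with a Spearman correlation of -0.40 across 10863 genes of this pair of libraries, which are not independent replicates. Over the 10974 genes that averaged 1 FPKM or more, the median log2 ratio was -0.04, and scaling to equal FPKM sums would raise every log2 ratio by 0.10.

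Ctnnb1 mRNA was abundant and nearly equal in both libraries, while Apc, Axin1, Gsk3a and Gsk3b had lower values and Tcf7 and Tcf7l2 higher values in STAP-1 KO LSCs as deposited. Lef1 had no difference beyond counting error. With an adjustment for transcript length and GC content, Gsk3b turned to a higher value and the log2 ratio of Axin1 went from -0.54 to -0.10. The cut-off for a change was a 2-fold ratio, applied to genes that reached 0.1 FPKM in each library. Of the 10 genes, 8 passed this floor, and Axin2 and Tcf7l1, which were listed at 0 in STAP-1 KO LSCs, did not. Of the 8 genes, 1 gene (Apc) was lower, against a background of 22.9% of the 12507 genes above the floor. In the other direction, 2 genes (Tcf7 and Tcf7l2) were higher, against a background of 12.3%. The remaining 5 genes stayed within 2-fold. With the adjustment for transcript length and GC described below, 0 of the 8 genes were lower and Tcf7 and Tcf7l2 remained higher, where all genes gave 18.2% lower and 11.4% higher. Tcf7 then lay at the cut-off itself, and it lost the call with length alone adjusted for (log2 ratio of 0.86), while Tcf7l2 lost it with a floor of 1 FPKM.

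**Figure D1:**
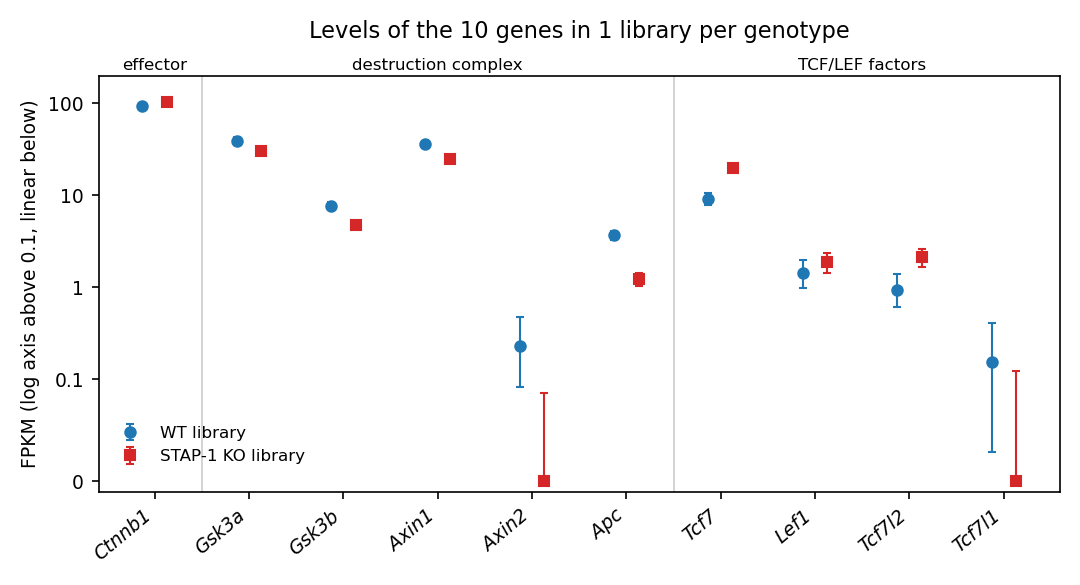
FPKM of the 10 genes in WT LSCs (blue circles) and STAP-1 KO LSCs (red squares), on an axis that is logarithmic above 0.1 and linear below, with bars for the 95% counting interval. Ctnnb1 is highest in both libraries at 94.2 and 102 FPKM, and the red squares of Axin2 and Tcf7l1 sit at 0.

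Ctnnb1, on chromosome 9 (120929216 to 120960507, plus strand) in GRCm38, encodes beta-catenin. It had 94.2 FPKM in WT LSCs and 102 FPKM in STAP-1 KO LSCs, from about 2410 and 3662 estimated reads. It stood above 94.9% of all genes in each library. The ratio of the STAP-1 KO library to the WT library was 1.09 (95% counting interval from 1.03 to 1.15), so that the values lay a little further apart than counting error. The genes nearest to Ctnnb1 in level, by the distance of log2(FPKM + 0.1) over the 2 libraries, were Prep (94.3 and 105 FPKM), Fgfr1op2 (97.1 and 103 FPKM) and Wsb1 (96.5 and 105 FPKM). Likeness over 2 libraries says only that their levels were close.

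Jup encodes gamma-catenin, the closest relative of beta-catenin, and was not a member. It had 15.8 FPKM in WT LSCs and 1.77 FPKM in STAP-1 KO LSCs, which is 8.94-fold lower (from 6.67 to 12.0). Ctnnb1 was therefore 5.95 times as high as Jup in WT LSCs and 57.8 times as high in STAP-1 KO LSCs.

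Among the destruction complex genes above the floor, Apc had the largest ratio as deposited. Apc, on chromosome 18 (34220924 to 34322552, plus strand), encodes the large scaffold that binds beta-catenin and is lost in intestinal tumors. It had 3.67 FPKM in WT LSCs and 1.23 FPKM in STAP-1 KO LSCs, from about 347 and 162 estimated reads, which is 2.997-fold lower (counting interval from 2.48 to 3.63). Its longest coding transcript has 12811 bases, and transcripts of that length were lower in general. Among the 544 genes of at least 7645 bases averaging 1 FPKM or more, the median log2 ratio was -1.01 and 52.0% were at least 2-fold lower. An adjustment subtracted the median of genes of like transcript length and then of like GC content. With it the log2 ratio of Apc went from -1.51 to -0.66, which is no longer past the 2-fold cut-off. How far transcript length accounts for the fall of Apc was not tested.

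Axin1, on chromosome 17 (26138688 to 26195811, plus strand), encodes the scaffold that assembles the complex. It had 36.1 FPKM in WT LSCs and 24.7 FPKM in STAP-1 KO LSCs, which is 1.46-fold lower (from 1.33 to 1.60). The value is beyond counting error but below the cut-off, and after the adjustment for length and GC content its log2 ratio went from -0.54 to -0.10. As deposited, Axin1 had 9.83 times the FPKM of Apc in WT LSCs and 20.2 times in STAP-1 KO LSCs. The adjustment raises the log2 ratio of Apc more than that of Axin1, so this difference between the libraries would be smaller with it.

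Axin2, on chromosome 11 (108920349 to 108950783, plus strand), encodes a second scaffold and is itself a well-known target gene of beta-catenin, by which it limits the signal. It had 0.231 FPKM in WT LSCs, which corresponds to about 7 estimated reads, and was listed at 0 in STAP-1 KO LSCs. In the STAP-1 KO library 3 reads would have given 0.0707 FPKM, so that levels up to about this value cannot be told from 0. Axin2 made up 0.635% of the summed FPKM of Axin1 and Axin2 in WT LSCs. None of 8 housekeeping genes was listed at 0 in either library.

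Gsk3a and Gsk3b encode the closely related kinases that phosphorylate beta-catenin and many other proteins. Gsk3a, on chromosome 7 (25228258 to 25237851, minus strand), had 39.5 FPKM in WT LSCs and 30.1 FPKM in STAP-1 KO LSCs, which is 1.31-fold lower (from 1.17 to 1.47). Gsk3b, on chromosome 16 (38089001 to 38246084, plus strand), had 7.73 and 4.77 FPKM, which is 1.62-fold lower (from 1.42 to 1.86). Neither reached the cut-off. Gsk3b has a transcript of 8303 bases and falls in the same class of long transcripts as Apc, and its direction turned with the adjustment, from a log2 ratio of -0.69 to 0.20, whereas Gsk3a went from -0.39 to -0.31. As deposited, Gsk3a contributed 83.6% of the FPKM of both kinases in WT LSCs and 86.3% in STAP-1 KO LSCs. With the adjusted ratios, where Gsk3a is lower and Gsk3b higher, this share would fall and not rise. Over all 5 genes of the complex the median log2 ratio was -0.69, and over the 4 genes averaging 1 FPKM or more it was -0.62. With the adjustment for length and GC content the median of the 5 genes was -0.31.

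**Figure D2:**
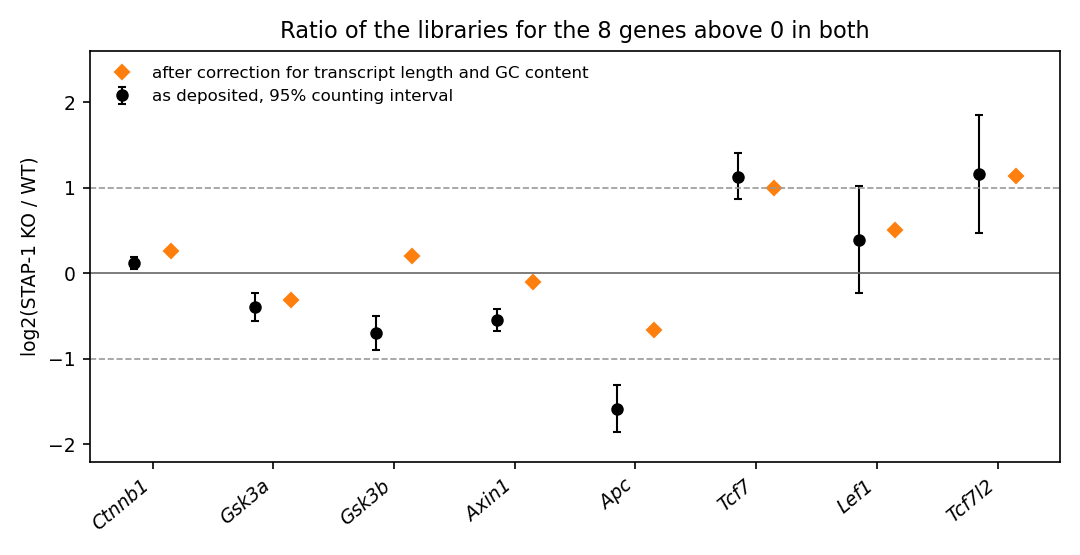
Log2 ratio of STAP-1 KO to WT for the 8 genes above 0 in both libraries, as the plain FPKM ratio with its 95% counting interval (black) and, from log2(FPKM + 0.1), after the adjustment for length and GC content (orange). Dashed lines mark 2-fold; Apc moves inside them with the adjustment and Gsk3b crosses 0, while Tcf7 and Tcf7l2 stay near 1.

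The TCF/LEF factors bind DNA through a shared HMG box and recruit beta-catenin or TLE corepressors. Tcf7, on chromosome 11 (52252371 to 52283014, minus strand), encodes TCF-1, known for its role in T cells. It had 9.13 FPKM in WT LSCs and about 20 FPKM in STAP-1 KO LSCs, from about 155 and 474 estimated reads, which is 2.19-fold higher (counting interval from 1.82 to 2.64). The interval includes ratios below 2. Tcf7l2, on chromosome 19 (55741820 to 55933654, plus strand), encodes TCF-4, known from the intestinal epithelium. It had 0.945 and 2.11 FPKM, from about 24.8 and 77.5 estimated reads, which is 2.23-fold higher (from 1.39 to 3.61). With the adjustment for length and GC content the log2 ratio of Tcf7 went from 1.12 to 0.99, and that of Tcf7l2 from 1.08 to 1.13.

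Lef1, on chromosome 3 (131110471 to 131224356, plus strand), encodes a factor of early lymphoid cells. It had 1.42 FPKM in WT LSCs and 1.87 FPKM in STAP-1 KO LSCs, and the counting interval of the ratio of 1.31 ran from 0.853 to 2.04, so that no difference was detectable at this depth. Tcf7l1, on chromosome 6 (72626378 to 72789254, minus strand), encodes TCF-3, mostly a repressor. It had 0.155 FPKM in WT LSCs, from about 3.30 estimated reads, and was listed at 0 in STAP-1 KO LSCs, where 3 reads would have given 0.101 FPKM. The values of Tcf7l1 are therefore near the limit of detection in both libraries.

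Tcf7 supplied most of the TCF/LEF mRNA. Of the summed FPKM of the 4 genes, which was 11.7 in WT LSCs and 24.0 in STAP-1 KO LSCs, Tcf7 made up 78.4% and 83.4%, Lef1 12.2% and 7.79%, and Tcf7l2 8.11% and 8.80%. Ctnnb1 had 8.08 times the FPKM of the 4 genes together in WT LSCs and 4.27 times in STAP-1 KO LSCs. The median log2 ratio of the 4 genes was 0.73, with Tcf7l1 as the lowest value whether its ratio is set by the pseudocount or by 3 reads, and over the 3 genes averaging 1 FPKM or more it was 1.08. The latter is the value of Tcf7l2, which had 0.945 FPKM in WT LSCs and averaged 1 FPKM only through STAP-1 KO LSCs. The values are per gene. Both Tcf7 and Lef1 are known to have shorter forms that lack the beta-catenin binding part, and the forms cannot be told apart here.

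Sequences upstream of these genes are shown for a TCF/LEF gene that was higher in STAP-1 KO LSCs (Tcf7l2), for the feedback gene listed at 0 in STAP-1 KO LSCs (Axin2), and for the start site inside Lef1, the one TCF/LEF window that holds the letters searched. They are the 250 bases before a RefSeq start site in GRCm38.p6, 5′ to 3′ on the strand of the gene, at chr19:55741560-55741809, chr11:108920099-108920348 and chr3:131156044-131156293, all on the plus strand. Capitals mark the TCF/LEF core CTTTGA or its reverse complement TCAAAG.
Tcf7l2: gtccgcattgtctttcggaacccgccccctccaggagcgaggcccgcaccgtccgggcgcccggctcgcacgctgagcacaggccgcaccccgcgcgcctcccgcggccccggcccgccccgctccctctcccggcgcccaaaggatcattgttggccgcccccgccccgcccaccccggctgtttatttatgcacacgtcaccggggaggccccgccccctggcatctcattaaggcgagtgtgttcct
Axin2: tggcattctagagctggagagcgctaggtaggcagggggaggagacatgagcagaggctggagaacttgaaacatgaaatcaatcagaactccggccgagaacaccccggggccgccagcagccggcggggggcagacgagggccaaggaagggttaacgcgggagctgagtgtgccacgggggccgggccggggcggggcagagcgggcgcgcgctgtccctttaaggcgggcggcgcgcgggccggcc
Lef1: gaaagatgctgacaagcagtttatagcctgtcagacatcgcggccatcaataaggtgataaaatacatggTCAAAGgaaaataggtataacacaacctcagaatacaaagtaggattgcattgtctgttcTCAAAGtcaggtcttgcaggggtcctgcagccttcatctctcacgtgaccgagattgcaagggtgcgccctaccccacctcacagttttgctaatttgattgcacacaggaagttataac

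The core was searched on both strands in 14 such windows of 8 members. It was present in 3 windows, once each for Gsk3a and Gsk3b and 2 times in the Lef1 window shown, against 13.8% of 32851 windows of all genes. The windows of Tcf7, Tcf7l2 and Axin2 held none, which says only that these letters are not in these 250 bases. GC content was 72.8% in the Tcf7l2 window and 69.2% in the Axin2 window, against 44.8% in the Lef1 window and a median of 52.4% over all windows.

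In order of level, the WT library had Ctnnb1 first, then Gsk3a, Axin1, Tcf7, Gsk3b, Apc, Lef1, Tcf7l2, Axin2 and Tcf7l1. The counting intervals of Gsk3a and Axin1, of Tcf7 and Gsk3b, of Lef1 and Tcf7l2 and of Axin2 and Tcf7l1 overlapped. In the STAP-1 KO library the first 5 places were taken by Ctnnb1, Gsk3a, Axin1, Tcf7 and Gsk3b, with no overlap between neighbours. As deposited, Apc went from place 6 in WT LSCs to place 8, behind Tcf7l2 and Lef1, whose intervals overlapped each other. With the adjustment for length and GC content the log2 ratio of Apc rose from -1.51 to -0.66. Those of Tcf7l2 (1.08 to 1.13) and Lef1 (0.37 to 0.50) moved less, and the places were not worked out again.

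Tcf7 and Lef1 are also T cell genes, so the 15 T cell marker genes were set beside them. None was listed at 0. Of the 15, all passed the floor, 6 were at least 2-fold higher and 2 at least 2-fold lower in STAP-1 KO LSCs, against 12.3% higher and 22.9% lower over all genes. With the adjustment 5 were higher, without Cd3g, and 3 lower, with Lat. Their summed FPKM was 197 in WT LSCs and 145 in STAP-1 KO LSCs, most of it from Lat (169 and 86.7 FPKM), while the median log2 ratio of the 7 markers averaging 1 FPKM or more was 1.44. That is the value of Cd3g, whose adjusted log2 ratio was 0.78. Cd2 and Cd6 reached a mean of 1 FPKM only through STAP-1 KO LSCs and Zap70 only through WT LSCs. The median therefore depends on which library admits a gene. The surface receptor genes Cd2 (0.285 and 1.94 FPKM), Cd6 (0.3304 and 2.17 FPKM), Cd5 (0.287 and 0.719 FPKM) and Cd4 (0.139 and 0.463 FPKM) were higher, from low levels, as was Tcf7, and Cd8a, at a like level, was lower (0.369 and 0.132 FPKM). Estimated reads in WT LSCs were about 2.01 for Cd2, 6.99 for Cd6, 5.97 for Cd5 and 3.01 for Cd4. Cd8a had about 8.07 and 4.04 estimated reads, so the counting error of these ratios is wide. The invariant T cell receptor genes Cd3d (0.713 and 0.681 FPKM) and Cd3e (0.869 and 1.09 FPKM) were low and close to each other in both libraries, and Cd3g had 1.80 and 5.04 FPKM. The kinase gene Lck was 3.55-fold higher, with 11.8 and 41.9 FPKM, while the kinase gene Zap70 had 8.59 and 0.581 FPKM. The sort took lineage marker-negative cells, with antibodies to CD3e and CD8 in the lineage mixture. The part of T-lineage cells in the rise of Tcf7 was not tested, and fewer cells of a type and less RNA per cell cannot be told apart in bulk samples.

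**Figure D3:**
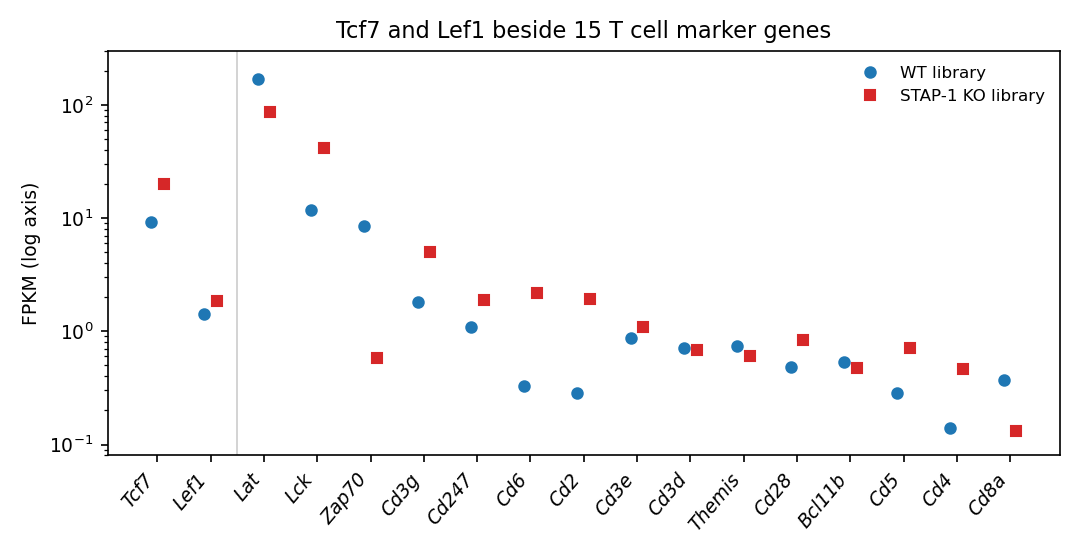
FPKM (log axis) of Tcf7 and Lef1 and, right of the line, of 15 T cell marker genes in order of their level, in WT LSCs (blue) and the STAP-1 KO library (red). Tcf7 and Lck are higher in STAP-1 KO LSCs, Zap70 and Lat are lower, and Cd3d and Cd3e lie together.

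Myeloid marker lists also differed, beside 22.9% lower and 12.3% higher over all genes. Of 12 mast cell and basophil genes, 11 were at least 2-fold lower, and their summed FPKM went from 51884 in WT LSCs to 5332 in STAP-1 KO LSCs, led by the mast cell protease genes Cpa3 (17984 and 1775 FPKM) and Cma1 (13924 and 1168 FPKM), while of 8 primary granule genes 6 were at least 2-fold higher, among them Mpo with 248 and 1973 FPKM. Of the same 8 genes, Srgn, which had the highest value in WT LSCs and which other blood cells also express, went the other way with 6691 and 1588 FPKM, and the summed FPKM of the 8 genes was 7726 and 7049. The part of these differences in the values of the 10 genes was not tested.

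The rest of the pathway was examined with lists written by role, whose counts stand beside 22.9% lower and 12.3% higher over all genes as deposited, and 18.2% and 11.4% with the adjustment for length and GC content. Wnt ligands were low, as 10 of 19 were at 0 in both libraries and the highest value was 0.565 FPKM, for Wnt6 in STAP-1 KO LSCs. For Wnt secretion, 1 of 2 genes passed the floor. This was Wls, the carrier that brings Wnt proteins to the cell surface, which had 17.5 and 38.5 FPKM and was 2.19-fold higher. The other gene, Porcn, had 0 and 0.0577 FPKM, the latter from about 1.01 estimated reads. Of 15 Frizzled, LRP and related receptors, 10 passed the floor, 6 were at least 2-fold lower and none was higher. With the adjustment 5 were lower, with Ryk added and without Lrp5 and Lrp6. The co-receptor gene Lrp6 had 4.40 and 1.26 FPKM, Fzd6 had 4.86 and 1.70 FPKM and Fzd7 had 2.70 and 0.519 FPKM. Over the 4 receptor genes averaging 1 FPKM or more the median log2 ratio was -1.59, against -0.04 for all genes. Their median was -1.02 with length alone adjusted for and -1.11 with length and GC content.

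For the R-spondin axis, which controls how many receptors stay at the surface, 3 of 9 genes passed the floor and 1 was lower, Rnf43, a ligase that removes receptors, with 1.46 and 0.233 FPKM. Lgr4 (2.03 and 1.14 FPKM) and Znrf3 (1.44 and 1.16 FPKM) stayed below the cut-off. Of 15 genes for secreted inhibitors and their receptors, 4 passed the floor and 3 were lower. Frzb had 2.70 and 0.106 FPKM, the latter from about 3.25 estimated reads, and Kremen1 had 4.68 and 1.32 FPKM, whereas Sfrp4 had 3.36 and 4.01 FPKM.

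Among 17 Dishevelled and other cytoplasmic regulators, 11 passed the floor, 5 were lower and none was higher, while with the adjustment 4 were lower and 2, Dvl2 and Frat2, were higher. The tankyrases, which mark Axin for degradation, were lower, with Tnks2 at 82.3 and 13.2 FPKM (6.26-fold) and Tnks at 7.25 and 1.501 FPKM (4.83-fold), and the log2 ratios after the adjustment for length and GC content were -1.82 and -1.26. Dvl3, which carries the signal from the receptor to Axin, had 8.84 and 2.68 FPKM, while Dvl1 had 11.2 and 8.82 FPKM and Dvl2 had 8.61 and 9.56 FPKM. Of 14 other destruction complex and turnover genes, 13 passed the floor, 2 were higher and none was lower. These were Skp1a, of the ubiquitin ligase, with 204 and 447 FPKM, and Csnk1e, a casein kinase 1 gene, with 8.99 and 18.9 FPKM. With the adjustment 3 were higher, Csnk1e, Ppp2ca and Amer1. Csnk1a1, the casein kinase that primes beta-catenin for GSK3, had 145 and 174 FPKM, and the ligase genes Btrc (4.99 and 6.26 FPKM) and Fbxw11 (43.0 and 31.6 FPKM) were also within 2-fold, as was the GSK3 binding protein gene Gskip (36.0 and 21.97 FPKM).

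**Figure D4:**
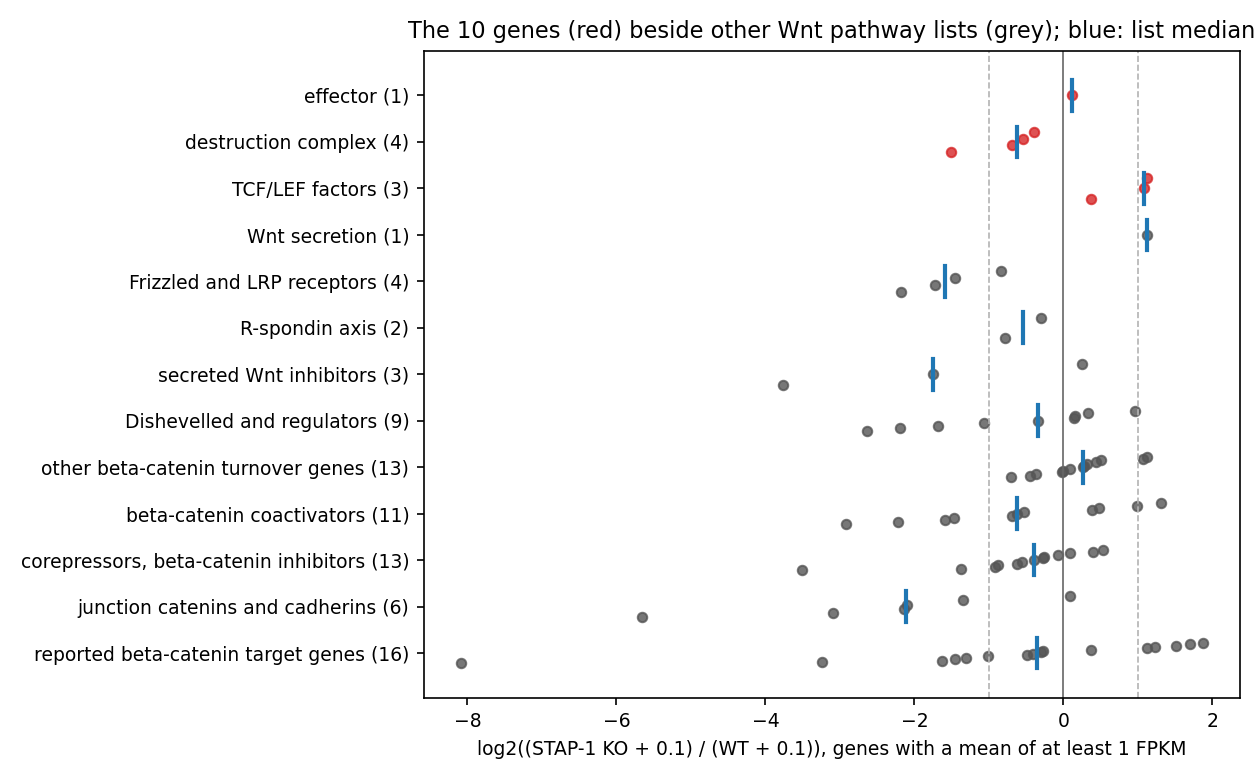
Log2 ratios (STAP-1 KO over WT, pseudocount of 0.1 FPKM) of genes averaging 1 FPKM or more in the 3 roles of the 10 genes (red) and in 10 further Wnt pathway lists (grey), with list medians in blue, 2-fold as dashed lines and the number of genes in brackets. The receptor and junction lists lie mostly left of -1, the TCF/LEF factors right of 0, and the leftmost point is Mmp7, which was listed at 0 in STAP-1 KO LSCs and takes its place from the pseudocount.

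Among 14 coactivators of beta-catenin, 13 passed the floor, 4 were lower and 1 was higher, and with the adjustment 2 were lower and 2 higher. Med12 had 9.73 and 1.21 FPKM and the acetyltransferase gene Ep300 9.04 and 1.86 FPKM, Tbl1xr1 had 24.96 and 8.94 FPKM, and Ruvbl2, which was higher, had 89.3 and 222 FPKM. Of 16 corepressors and inhibitors, 13 passed the floor and 2 were lower, of which Tle3 remained with the adjustment. The TLE corepressor gene Tle3 had 13.3 and 1.08 FPKM, which is 12.3-fold lower, while Tle1 (5.22 and 5.56 FPKM) and Tle4 (13.3 and 12.7 FPKM) were close in both libraries. Chd8 had 3.02 and 1.10 FPKM and Ctbp1 143 and 77.8 FPKM. With the adjustment, Lrp6 (log2 ratio of -0.84), Tbl1xr1 (-0.71), Chd8 (-0.37) and Skp1a (0.67) were no longer called.

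Beta-catenin also joins cadherins to the cytoskeleton through alpha-catenin. Of 10 catenin and cadherin genes other than Ctnnb1, 5 passed the floor, and 4 of these were lower, or 3 with the adjustment. Besides Jup, the alpha-catenin gene Ctnna1 had 60.1 and 14.02 FPKM (4.29-fold lower). The N-cadherin gene Cdh2 had 8.23 and 0.0646 FPKM, from about 286 and 3.13 estimated reads, and was below the floor in STAP-1 KO LSCs. The median log2 ratio of the 6 genes averaging 1 FPKM or more was -2.12. Jup and Ctnna1 stayed past the cut-off after the adjustment for length and GC content, with log2 ratios of -2.64 and -1.87.

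The 33 listed genes that have been described as targets of beta-catenin, which include Axin2, Lef1 and Tcf7, had members on both sides. Of these, 18 passed the floor, 6 were lower and 5 were higher, also with the adjustment, against 22.9% and 12.3% over all genes. Higher were Myc (59.3 and 169 FPKM), Mycn (9.66 and 31.6 FPKM), the survivin gene Birc5 (118 and 276 FPKM), Bambi (0.662 and 2.69 FPKM) and Tcf7. Lower were Id2 (896 and 94.5 FPKM), Jun (510.0 and 165 FPKM), Vegfa (39.1 and 14.2 FPKM), Plaur (65.1 and 26.4 FPKM), Fosl1 (1.82 and 0.847 FPKM) and Rnf43, and Mmp7 had 27.1 FPKM in WT LSCs and was listed at 0 in STAP-1 KO LSCs. Sp5, Lgr5, Notum and Dkk1, which like Axin2 are narrow targets of the pathway, were at 0 in both libraries. The feedback inhibitors Apcdd1 (0.0515 and 0.332 FPKM, about 4.12 and 37.1 estimated reads) and Nkd1 (0.0685 and 0.221 FPKM, about 1.99 and 8.95 estimated reads) were below the floor in WT LSCs and had the higher value in STAP-1 KO LSCs. The cyclin D genes Ccnd1 (1.38 and 1.01 FPKM) and Ccnd2 (72.5 and 51.6 FPKM) were within 2-fold.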

How the data were processed

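RNA-seq of 1 WT and 1 STAP-1 KO library of sorted LSCs was used. Reads had been mapped to mm10 with TopHat2 2.0.13, Bowtie2 2.2.3 and SAMtools (0.1.19 in the submitters' processing notes, another version in the methods), and the authors deposited FPKM values made with Cuffnorm of Cufflinks 2.2.1. The annotation and the scaling of the libraries are not given in the sources used here.

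Ratios, lists and figures were made in Python 3.11.15 (scipy 1.17.1, pandas 2.3.3, numpy 2.4.6, matplotlib 3.10.9). Log2 ratios used a pseudocount of 0.1 FPKM, which understates the change of low genes. A gene was changed at a ratio of 2 with 0.1 FPKM in both libraries. Medians of lists used genes averaging 1 FPKM or more unless stated otherwise. Symbols were matched to GENCODE M21 (GRCm38), 20911 as written and 1915 through an older symbol. Depths were taken from the steps of low values of genes with 1 transcript, of which 46.6% (WT) and 47.7% (STAP-1 KO) came within 0.01 of whole reads, where chance gives 2%. Counting intervals are exact (Poisson for levels, Clopper-Pearson for ratios). The correction subtracts the median of genes in the same of 20 bins of transcript length, then of GC content. The steps were tested on simulated data.

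The rule named all 10 members, Stap1, Kit, Ly6a, Cd34, Jup, the 3 genes nearest to Ctnnb1, from each pathway list up to 3 genes averaging 1 FPKM or more whose log2 ratio (pseudocount of 1 FPKM) was largest in size, and from each marker list the 1 or 2 genes of highest mean FPKM. The leading erythroid gene, a globin whose reads near-identical copies can share, is left out. Counts of list genes with the correction were added, and further list genes named, after their values were seen. The members and lists were chosen with earlier results of these data known. RefSeq promoter windows (GRCm38.p6) were found for 8 of 10 members.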

Additional observations from a re-analysis of the deposited data

How the results depend on the processing

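No paired analysis was possible because each genotype had 1 library, and for the same reason no replicate could be left out. Scaling to equal FPKM sums moved the log2 ratio of Ctnnb1 from 0.12 to 0.22, beyond its counting interval. Corrected for transcript length alone, the log2 ratio was 0.26 for Ctnnb1, -0.50 for Apc, -0.32 for Axin1, -0.68 for Gsk3a and 0.32 for Gsk3b, and corrected also for GC content it was 0.26 for Ctnnb1, -0.66 for Apc, -0.10 for Axin1 and 0.20 for Gsk3b. At a pseudocount of 1 FPKM that of Apc was -1.07. The values of Tcf7, Tcf7l2 and Lef1 stayed within their counting intervals under each alternative run, except that of Tcf7 corrected for length alone (0.86), which lay just below. The number of members lower by 2-fold was 1 as reported, 3 without a floor, where Axin2 and Tcf7l1 enter through the pseudocount, 2 at a 1.5-fold cut-off, and 0 at a 4-fold cut-off and under both corrections. The number higher was 2 as reported, 1 with a floor of 1 FPKM, which Tcf7l2 does not pass, 1 with the correction for length alone, and 0 at 4-fold; with the correction for length and GC content it stayed at 2, with Tcf7 at the cut-off itself. The median log2 ratio of the destruction complex was -0.50 and -0.31 under the corrections, and that of the TCF/LEF factors kept its sign. Of 77 list medians under these alternatives, 69 kept their sign. The 8 others belong to 5 of 10 lists: the R-spondin axis, the Dishevelled list, the other turnover genes, the coactivators and the target genes. The cause of these changes was not tested. At these depths the levels of Axin2 and Tcf7l1 rest on fewer than 10 reads.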

Other observations

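Marker lists of other blood, stromal and stem cells were also read, beside 22.9% lower and 12.3% higher over all genes. B lymphoid genes were low, with Pax5 and Ebf1 at 0 in both libraries, and 3 of 10 genes passed the floor, of which 2 were at least 2-fold higher in the STAP-1 KO library, led by Cd79b (3.10 and 17.8 FPKM, WT value first). Of 10 genes of NK and innate lymphoid cells, 5 passed the floor and 3 were lower, among them the interleukin-7 receptor gene Il7r (11.6 and 1.56 FPKM) and the granzyme gene Gzma (21.1 and 8.70 FPKM). Of 9 erythroid genes found, 4 were lower and none was higher, and Gata1 had 187 and 96.1 FPKM. Of 8 megakaryocyte genes, 3 were lower and 1 was higher, and Cd9 had 279 and 177 FPKM and Itga2b 123 and 32.5 FPKM. Of 10 stromal and endothelial genes, 5 passed the floor, 2 were lower and 1 was higher, and Pecam1 had 46.9 and 23.4 FPKM and the collagen gene Col1a2 4.68 and 0.3097 FPKM. With the adjustment for length and GC content 1 of these was lower and 2 were higher, and Pecam1 (log2 ratio of -0.90) was no longer called. Of 12 genes of the LSK gate and of stem cells, 4 were lower and 2 were higher, and Cd34 had 281 and 194 FPKM. With the adjustment 2 were lower, Kit and Ly6a, and 2 were higher, beside 18.2% and 11.4% over all genes. The adjustment also gave 5 lower erythroid genes, 4 lower NK and innate lymphoid genes and 1 higher B lymphoid gene, and left the megakaryocyte counts as they were. All of these compare 1 library with 1 library.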
